A study of Mus musculus with 35 samples.

Results

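Opposite-strand lncRNAs are long non-coding RNA genes named after a protein-coding gene on the other DNA strand, with the suffix os and, where a locus has several, a number. They were taken from the deposited annotation as every gene of biotype lncRNA whose name ends in this suffix and which has a line in the count matrix. This rule found 278 genes among 55356. The coding gene given by the stem of the name, called the partner here, was found for 276 of them, and all 276 lay on the strand opposite their partner. Snhg7os and Etos1 had no partner. The 276 lncRNAs pointed to 236 partners, of which some, such as Chn1 and Sox5, carry several lncRNAs.

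Transcription from the strand opposite a coding gene can start beside the coding promoter and run away from it, can start inside the gene and run back across its exons, or can lie within an intron. Some of these RNAs have known roles: Cdr1os is the host of a circular RNA that binds a microRNA in neurons, and Dnm3os is the precursor of a microRNA cluster. For most of the others no role is established.

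The libraries came from adult C57BL/6J mice with no treatment, and total RNA was depleted of ribosomal RNA before short-read sequencing described as strand-specific. There were 10 groups: female and male brain, cerebellum, heart and colon, female gonad (ovary) and male gonad (testis). Each group held 3 libraries except male heart, which held 2, giving 29 in all. Ages beyond adult were not given, and the labels number the replicates without saying that they came from separate animals, so the p-values measure the spread between these libraries, which may be technical. Long-read flow cells of the same study entered only through the annotation, in which loci built from them carry names beginning with PB. Total counts per library ran from 24403774 to 36194255 in brain, from 19075669 to 27087240 in cerebellum, from 19590147 to 25062064 in heart, from 11742417 to 18890658 in colon, from 18035978 to 28081608 in ovary and from 28459258 to 30925443 in testis. The opposite-strand lncRNAs took between 0.0590% and 0.637% of these counts. The highest share was that of female cerebellum replicate 3, where Cdr1os alone had 143166 of the 172648 counts of all members.

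Levels are given as FPKM, the counts scaled to the exon length of the gene and to the total count of the library, and a tissue mean is taken over the libraries of both sexes (n = 6 for brain, cerebellum and colon, 5 for heart, 3 for ovary and testis). Of 30 marker genes chosen for the 6 tissues, 28 were highest in their own tissue. The cardiac myosin gene Myh6 reached 3875 FPKM in heart, the protamine gene Prm1 4611 in testis, the granulosa cell factor Foxl2 44.8 in ovary, the kinase gene Camk2a 505 in brain, the Purkinje cell gene Pcp2 1405 in cerebellum and the chloride exchanger gene Slc26a3 495 in colon. The exceptions were Gad1, with 96.3 FPKM in cerebellum and 56.2 in brain, and Star, with 67.6 in testis and 56.0 in ovary. Markers of other cell types were present too. The 4 choroid plexus markers Ttr, Kcne2, Folr1 and Kl summed to 2946 FPKM in cerebellum and 518 in brain (19.9 to 1565 over its libraries), nearly all of it Ttr. The 4 smooth muscle markers Acta2, Myh11, Des and Actg2 summed to 6119 FPKM in colon and 1863 in ovary. In heart they summed to 1165, of which Des, a gene that heart muscle also uses, made up 1082. The 3 adipocyte markers Adipoq, Plin1 and Cidec summed to 91.1 FPKM in colon, 68.2 in ovary and 53.8 in testis, against 0.0737 in brain. In heart they summed to 1027 FPKM in female replicate 3 and to 0.112 to 3.13 in the other 4 libraries. The same library held 33.1 FPKM of the lung markers Sftpc and Sftpb, against at most 0.156 in the other heart libraries, and 566 FPKM of the 4 immune markers Ptprc, Cd3e, Cd79a and Lyz2, against 174 to 244. Of the heart markers it had 2770 FPKM of Nppa and 1989 of Myl7, which are genes of the atrium, against 41.1 to 90.1 and 6.66 to 76.4 in the other heart libraries, and 1789 of Myh6 against 3441 to 4951. This library thus stood apart within heart. The skeletal muscle markers Acta1 and Myh4 summed to 312 FPKM in heart, with Myh4 at 0.487, and the lung markers to 4.03 in ovary. In colon the immune markers summed to 169, 207 and 203 FPKM in the female and 678, 383 and 270 in the male libraries, which did not overlap. Male colon replicate 1 also had the most smooth muscle marker signal, 10700 FPKM against 3653 to 6924. Ovary replicate 1 had 12.0 FPKM of adipocyte and 1037 of smooth muscle markers, against 114 and 78.6 and against 2297 and 2255 in the other 2. Of the list for oviduct and multiciliated cells, Foxj1 and Ccdc39, which sperm-forming cells also use, had 18.95 and 34.25 FPKM in testis, and the oviduct gene Ovgp1 had 0.398 there and 1.504 in ovary. Gh and Prl of pituitary summed to 23.5 FPKM in female brain replicate 1 and to at most 0.372 in the other 5 brain libraries. The part of these markers in the results was not tested.

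An antisense transcript can be measured apart from its partner only if the reads keep their strand and were counted by it. The labels describe libraries that keep the strand, but no source used here states the strand setting of the counting, so the counts themselves were examined. Of 124 genes whose exons lie wholly inside the exons of a gene on the opposite strand with a level of at least 10 FPKM, 123 had counts. Their median level was 1.31 times that of the overlapping gene (quartiles 0.616 and 2.25), and the median correlation of their levels over the 6 tissues was 0.984. All 165 genes lying in the same way inside a gene of the same strand had a count of 0. A member can lose reads in this way too: 19 members share exon bases with another gene of their own strand, among them Dnm3os, Hoxa11os, Nkx2-2os, Zeb2os and Pax6os1, and their levels can be too low. Tsix, the antisense gene of the X-inactivation transcript Xist, had 450 to 2820 counts in the 15 female libraries and 0 to 38 in the 14 male libraries, and 1980 of its 6077 exon bases lie within Xist exons of GENCODE. The Xist locus itself had 784 to 5660 counts in female and 0 to 8 in male libraries. On bases that both strands share, reads of the lncRNA and of the coding gene could therefore not be told apart in this matrix. Counting treated overlaps on the same strand and on the opposite strand differently, so it did make use of strand. At which step the strand of shared reads was lost was not tested.

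The members were for this reason divided by position, using the deposited annotation together with GENCODE M21 on GRCm38.p6. In 164 of 278 the exons shared at least 1 base with exons of a gene on the opposite strand, 26 of them only in GENCODE. A further 77 lay inside the span of an opposite-strand gene without sharing exon bases, where intronic reads of that gene cannot be told apart either, and 37 lay outside every opposite-strand gene. Efhd1os is an example of large overlap: 254 of its 332 exon bases also belong to exons of Efhd1, a mitochondrial calcium-binding protein gene. For each sharing member the part of its level that the opposite gene could supply was estimated as the level of that gene times the shared fraction of the member's exon length. Of the 133 sharing members with at least 1 FPKM, 19 shared bases in GENCODE only, with no counted gene to estimate from. Over the other 114 this overlap estimate, taken in the member's highest tissue, had a median of 37.6% of the member's own level (quartiles 17.0% and 70.2%), and it was over 50% for 46 and under 10% for 19. The estimate was 102% for Efhd1os, 57.4% for Chn1os1 and 1.42% for Foxl2os. Of other members named below, it was 43.2% for Dhx58os, 40.9% for Unc45bos, 35.7% for Prss23os and 32.95% for Ube4bos1. For Zeb2os it was 30.7%, for Slain1os 30.3%, for Nkx2-2os 28.3% and for Kcnmb4os1 23.3%. For Six3os1 it was 23.2%, for Sardhos 21.4% and for Wt1os 20.85%. Seen from the transcription starts, 66 members stood head-to-head with their partner within 1000 bases, 40 more within 5000 bases, 117 lay within the partner's span, 43 overlapped that span and 10 lay apart.

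Expressed at 1 FPKM or more in their highest tissue were 191 of the 278 opposite-strand lncRNAs (68.7%), compared with 40.6% of 9479 other lncRNAs, 76.3% of 21662 protein-coding genes and 217 of the 236 partners. Taking each gene at its highest tissue, the members had a median level of 2.39 FPKM, other lncRNAs 0.595 and the partners 13.9. Ctrcos and ENSMUSG00000109224, 1 of the 2 genes named Tmem147os, had a count of 0 in all libraries, and the latter shares exon bases with genes of its own strand, so that its 0 does not show absence. Among the 164 members sharing exon bases, 133 reached 1 FPKM, whereas 37 of the 77 lying inside a gene and 21 of the 37 lying outside did so. The highest tissue means were those of Chn1os1 (322 FPKM in brain), Efhd1os (128 in testis), Kcnmb4os1 (109 in testis), Cdr1os (92.8 in cerebellum) and Itpr3os (75.8 in testis), all in the sharing class. Here and below, fewer cells of a type and less RNA per cell cannot be told apart in whole tissue.

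Testis was the tissue of the highest mean for 75 of the 191 members at 1 FPKM or more (39.3%), followed by ovary for 40, cerebellum for 22, brain for 21, colon for 17 and heart for 16. The testis share was 46.8% for other lncRNAs, 24.99% for protein-coding genes and 23.5% for partners. It differed with position: 41 of 133 sharing members (30.8%), 22 of 37 inside a gene (59.5%) and 12 of 21 outside (57.1%) were highest in testis. Tissue specificity was described by tau, which is 0 for equal means in all 6 tissues and 1 for a gene seen in a single tissue. Median tau was 0.802 for the members, 0.859 for other lncRNAs and 0.726 for the partners, and within the members it was 0.715 for sharing, 0.935 for inside and 0.917 for outside. Saxo1os, next to the sperm axoneme gene Saxo1 and picked after the values were seen, shows the testis pattern outside any gene, with 33.8 ± 4.22 FPKM in testis (SD, n = 3) and at most 0.0360 in another tissue. The members with the lowest tau were Rsf1os2 (0.265), Mypopos (0.273) and Chrna1os (0.288). Rsf1os2, within the span of the chromatin remodelling gene Rsf1, lay between 0.426 FPKM in heart and 1.22 in ovary (overlap estimate 61.1%). Chrna1os ran from 0.518 FPKM in testis to 1.16 in ovary, which is not wider than the spread within ovary (0.688, 1.12 and 1.66).

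**Figure D1:**
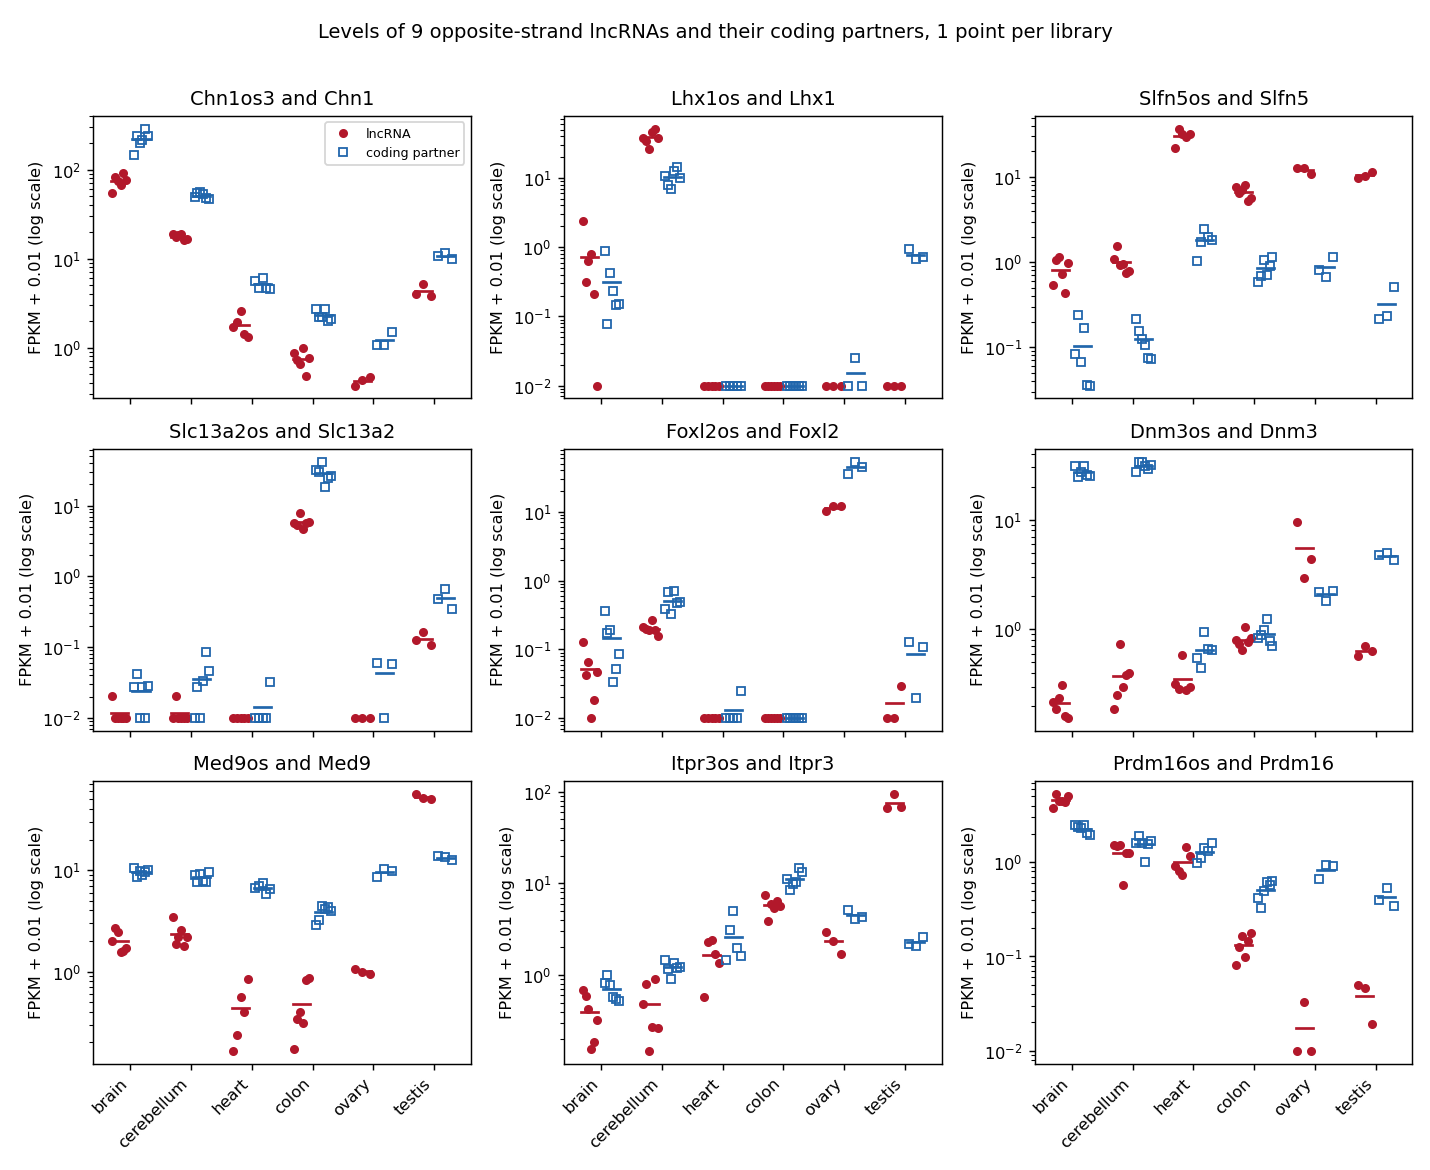
Levels of 9 opposite-strand lncRNAs and their partners in the 6 tissues, as FPKM plus 0.01 on a log axis. Points are libraries and bars are tissue means; Lhx1os stood at 38.9 FPKM in cerebellum, Foxl2os at 11.5 in ovary and Med9os at 52.7 in testis.

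Each tissue was then compared with the mean of the other 5 by edgeR's quasi-likelihood test over 29911 genes that passed a filter on low counts, among them 251 of the 278 members. A gene was called at a Benjamini-Hochberg adjusted p under 0.05, and folds are given as log2 with the standard error (SE). The share of all 29911 genes called in the same direction stands beside each first count. For each comparison the members named first are the 3 with the smallest adjusted p among those whose libraries stood apart, which describes these members and not the rest. In brain they were Chn1os3, Chn1os1 and Pcsk2os2. Chn1os3 and Chn1os1 lie opposite Chn1, a Rac GTPase-activating protein gene of axon guidance, and Pcsk2os2 lies opposite Pcsk2, a prohormone convertase gene. Chn1os3 (ENSMUSG00000086544, chr2:73596526-73616012, GRCm38.p6) had 54.2, 76.1 and 91.6 FPKM as the lowest, median and highest brain library, with a mean of 74.5 ± 13.0 (SD, n = 6). Its cerebellum libraries ran from 16.0 to 19.0 FPKM, testis averaged 4.35, heart 1.78, colon 0.738 and ovary 0.414. No brain library overlapped a library of another tissue, and the log2 fold was 5.18 (SE 0.10, edgeR adjusted p = 1.42e-23). Chn1 followed the same order, with 220 FPKM in brain and 51.2 in cerebellum, and shares 220 bases with Chn1os3 (overlap estimate 21.3%). Chn1os1 (chr2:73658270-73660263) had 197, 330 and 452 FPKM as the lowest, median and highest brain library and 66.9 ± 7.32 in cerebellum (log2 fold 5.93, SE 0.14, edgeR adjusted p = 5.78e-22). Pcsk2os2 reached 17.6 ± 3.43 FPKM in brain (13.6, 17.8 and 21.3) and 4.02 ± 0.720 in cerebellum, beside 82.3 and 18.1 for Pcsk2, and its overlap estimate was 13.4% (log2 fold 7.0, SE 0.16, edgeR adjusted p = 3e-22).

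Altogether 83 members were called higher in brain (33% of all genes tested) and 46 lower (23.1% of all genes), but DESeq2 gave 70 higher (19.7% of the 45373 genes it tested) and 74 lower (21.2% of these), so the balance of directions was not stable between tools. In 13 of the 83 the brain libraries stood apart from all others (4.93% of all genes tested were called and apart in this way). By position, 64 of 158 sharing (40.5%), 11 of 62 inside (17.7%) and 8 of 31 outside members (25.8%) were higher. Prdm16os, 703 bases head-to-head from the zinc finger gene Prdm16 and outside any gene, is a brain lncRNA without shared bases. It had 3.77, 4.46 and 5.29 FPKM as the lowest, median and highest brain library, 1.26 in cerebellum, 0.998 in heart and 0.00756 in ovary (log2 fold 5.08, SE 0.20, edgeR adjusted p = 1.36e-17), whereas Prdm16 itself averaged 2.27 FPKM in brain and 1.55 in cerebellum.

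In cerebellum the members named first were Nkx2-2os, Lhx1os and Srrm4os. Lhx1os stands 125 bases head-to-head from Lhx1, a LIM homeobox gene of Purkinje cells, Nkx2-2os lies opposite the oligodendrocyte factor gene Nkx2-2, and Srrm4os opposite the neural splicing gene Srrm4. Lhx1os (ENSMUSG00000087211, chr11:84525660-84535831) shares no base with any opposite-strand gene. Its cerebellum libraries had 26.4, 37.7 and 51.0 FPKM as lowest, median and highest, its brain libraries 0, 0.466 and 2.34, and heart, colon, ovary and testis had none at all, where 3 counts in the library of least depth would have been 0.366 FPKM. The lncRNA was more abundant than its partner in cerebellum, 38.9 ± 8.87 against 10.4 FPKM (n = 6), and the cerebellum difference had an edgeR adjusted p of 3.8e-11. Nkx2-2os had 1.54 ± 0.200 FPKM in cerebellum and 0.742 in brain, with a count of 0 in heart, ovary and testis (edgeR adjusted p = 2.59e-14). Srrm4os had 1.27 ± 0.528 FPKM in cerebellum (0.885, 1.02 and 2.29) and 0.467 in brain (log2 fold 4.50, SE 0.37, edgeR adjusted p = 7.07e-11). Prss23os, opposite a serine protease gene, was lower in all cerebellum libraries than in any other library, with 2.41 ± 0.369 FPKM against 50.1 in ovary and 32.9 in colon (log2 fold -3.01, SE 0.15, edgeR adjusted p = 1.19e-15). In total 90 members were higher in cerebellum (30.8% of all genes) and 40 lower (22% of all genes), and DESeq2 gave 84 and 65 (18.9% and 19.8% of its genes), moving the share of higher calls from 69.2% to 56.4%.

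Cdr1os, the host of the circular RNA, was abundant in both neural tissues, with 25.9, 69.2 and 83.6 FPKM in brain and 44.8, 68.5 and 220 in cerebellum as lowest, median and highest library, and at most 0.162 as the mean of any other tissue. The value of 220 FPKM belongs to female cerebellum replicate 3. Its exons share 1554 of 24030 bases with Cdr1, which had 856 FPKM in cerebellum and 590 in brain, and the overlap estimate was 59.6%. Reads counted for Cdr1 on these bases can equally come from Cdr1os or its circular RNA, so the estimate does not show which gene supplied them. Against the other tissues the log2 fold was 7.96 in brain (SE 0.35, edgeR adjusted p = 8e-17) and 8.53 in cerebellum (SE 0.35, edgeR adjusted p = 4.01e-17). Zeb2os differed less between tissues, with 11.3 ± 0.608 FPKM in cerebellum, 11.0 in ovary, 8.87 in brain and 3.13 in testis (tau 0.387).

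Set directly against cerebellum, brain had 24 members higher (15.3% of all genes) and 25 lower (10.8% of all genes), and in 17 (9.01% of all genes) and 14 (7.14% of all genes) of these the libraries did not overlap. Chn1os3 (log2 fold 2.21, SE 0.14, edgeR adjusted p = 5.33e-12), Chn1os1 (2.39, adjusted p = 3.38e-10) and Pcsk2os2 (2.28, adjusted p = 5.83e-10) were higher in brain. On the cerebellum side stood Lhx1os (log2 fold -5.89, SE 0.51, edgeR adjusted p = 5.64e-07), Hopxos and Dhx58os. Hopxos, opposite the homeodomain-only gene Hopx, had 47.6 ± 9.95 FPKM in cerebellum and 10.1 ± 3.11 in brain, and 48.7 ± 10.5 in heart, where its overlap estimate was 64.2% (log2 fold of brain to cerebellum -2.12, SE 0.24, edgeR adjusted p = 1.3e-07). Dhx58os, opposite an RNA sensor gene, had 1.66 FPKM in cerebellum and 0.228 in brain (log2 fold -2.74, SE 0.40, edgeR adjusted p = 7.79e-06).

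In heart Slfn5os, Ino80dos and Sorbs2os came first. Slfn5os (chr11:82942341-82960681) is named after Slfn5 but its exons overlap Unc45b, the gene of a myosin chaperone. The 5 heart libraries had 22.1, 36.8, 32.2, 29.6 and 31.6 FPKM, the 3 ovary libraries 12.9, 12.9 and 10.9, and brain averaged 0.802. All heart libraries lay above all others (log2 fold 3.60, SE 0.13, edgeR adjusted p = 8.01e-18), and the overlap estimate was 14.6%. Unc45bos, opposite the same chaperone gene, had 19.6 ± 5.09 FPKM in heart and 10.2 ± 3.80 in ovary, where the 5 heart markers summed to 13.2 FPKM, 10.8 of it Tnni3 and 0.382 Myh6, and Unc45b itself had 32.6 and 17.5. Ino80dos, beside the INO80 complex subunit gene Ino80d, had 37.5, 38.0, 28.7, 47.6 and 43.5 FPKM in heart and means of 5.69 to 11.4 elsewhere (log2 fold 2.80, SE 0.11, edgeR adjusted p = 2.57e-17). Ino80d did not share this pattern: it had 2.31 FPKM in heart and 5.43 in colon, and its own test gave an edgeR adjusted p of 0.236. The exons of Ino80dos also share 248 bases with Ndufs1, a gene of respiratory complex I that had 273 FPKM in heart. The overlap estimate was 61.1%, of which Ndufs1 made up 60.2, so most of the heart level cannot be told apart from reads of Ndufs1. Sorbs2os, opposite a sarcomere adaptor gene, had 7.46, 8.34, 5.39, 12.4 and 9.88 FPKM in heart and 0.639, 0.523 and 0.880 in testis, and was called higher in heart (log2 fold 2.92, edgeR adjusted p = 2.39e-14) and lower in testis (-1.85, adjusted p = 1.08e-06).

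Foxo6os, outside any gene beside the forkhead gene Foxo6, had 1.90, 1.93, 1.40, 2.38 and 1.86 FPKM in heart and 0.0220 in ovary, the reverse of Foxo6 with 0.974 in heart and 5.48 in ovary (log2 fold of Foxo6os 4.72, SE 0.27, edgeR adjusted p = 5.67e-14). Every heart library lay below all others in 5 members called lower (2.8% of all genes), and Pcsk2os2, Slain1os and Uchl1os had the smallest adjusted p of these. Pcsk2os2 averaged 0.00527 FPKM there (edgeR adjusted p = 1.86e-11), Slain1os, opposite a microtubule regulator gene, 0.0191 (adjusted p = 6.82e-09), and Uchl1os, opposite a ubiquitin hydrolase gene of neurons, 0.345 against 17.0 ± 1.77 in brain, where its overlap estimate was 77.2% (log2 fold -2.66, SE 0.36, edgeR adjusted p = 5.25e-07). Of all members, 41 were higher in heart (22.1% of all genes) and 73 lower (29.6% of all genes). DESeq2 gave 42 and 93 (15% and 23.1% of its genes).

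The first 3 members in colon were Slc13a2os, Mecomos and Galnt6os. Slc13a2os lies opposite the dicarboxylate transporter gene Slc13a2, Galnt6os opposite the mucin O-glycosylation gene Galnt6, and Mecomos opposite the transcription factor gene Mecom. Slc13a2os had 4.69, 5.66 and 7.79 FPKM as lowest, median and highest colon library, 0.122 in testis, and 0 in heart and ovary (edgeR adjusted p = 1.6e-15). Slc13a2 had 28.6 FPKM in colon, and the overlap estimate for the lncRNA was 85.2%. Mecomos, with an overlap estimate of 7.07%, had 0.660, 1.11 and 1.28 FPKM in colon and 0.152 in heart (log2 fold 5.40, SE 0.28, edgeR adjusted p = 6.17e-15). Galnt6os had 4.49, 8.09 and 8.84 FPKM in colon, where Galnt6 had 20.2 and the overlap estimate was 64.6% (log2 fold 4.13, SE 0.25, edgeR adjusted p = 1.35e-13). Hoxa11os, the antisense transcript of the homeobox gene Hoxa11, was seen in colon alone, at 0.464, 1.12 and 1.96 FPKM. Its lowest colon library was at least 8.57-fold higher than the level of 3 counts in a library of the other tissues (0.0541 FPKM), and its overlap estimate was 94.8%. Sardhos, opposite the sarcosine dehydrogenase gene, went the other way, with 2.86 ± 1.10 FPKM in colon and 34.9 in ovary (log2 fold -2.90, SE 0.21, edgeR adjusted p = 5.11e-12), and so did Usp46os2 (-2.04, adjusted p = 4.93e-10) and Mccc1os (-2.54, adjusted p = 1.47e-09). The overlap estimates of Usp46os2 and Mccc1os were 108% and 151%, so their levels cannot be told apart from those of the opposite genes Usp46 and Mccc1. Counts for colon were 52 higher (28.2% of all genes) and 78 lower (31.1% of all genes), with 57 and 92 by DESeq2 (20.6% and 22% of its genes).

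Ovary had Foxl2os, Wt1os and Dnm3os as its first members. Foxl2os starts 11 bases from Foxl2, the factor that maintains granulosa cells, Wt1os 19 bases from the gonadal and mesothelial factor gene Wt1, and Dnm3os is a microRNA precursor within an intron of the dynamin gene Dnm3. Foxl2os (ENSMUSG00000097072, chr9:98949781-98955299) had 11.5 ± 1.05 FPKM in ovary (SD, n = 3), 0.191 in cerebellum and 0 in heart and colon (edgeR adjusted p = 2.03e-14), and Foxl2 had 44.8. Wt1os had 5.94, 3.93 and 2.83 FPKM in the 3 ovary libraries and 0.769 in testis (edgeR adjusted p = 3.73e-12). In heart it averaged 0.236 FPKM, with 0.747 in female replicate 3, the library of the adipocyte and lung markers. Dnm3os (ENSMUSG00000078190, chr1:162217623-162225550) had 9.41, 2.91 and 4.35 FPKM in ovary, 0.792 in colon and 0.201 in brain (log2 fold 3.21, SE 0.21, edgeR adjusted p = 3.73e-12). The highest ovary value of Wt1os and of Dnm3os was that of replicate 1, which had the least adipocyte and smooth muscle marker signal. Of the ovary markers, this library had the lowest Zp3, Oosp1 and Amh (0.838, 0.913 and 4.035 FPKM) and the highest Star (74.5 FPKM) of the 3 ovary libraries. Dnm3 ran against Dnm3os, with 27.3 FPKM in brain, 31.0 in cerebellum and 2.08 in ovary, and was called lower in ovary (log2 fold -1.68, edgeR adjusted p = 2.2e-10). Chn1os3 (0.414 FPKM, log2 fold -4.31, edgeR adjusted p = 1.81e-14) and Hopxos (0.570 FPKM, -4.50, adjusted p = 2.69e-10) were lower in ovary than in any other tissue. Called higher in ovary were 50 members (22.4% of all genes) and lower 36 (19.8% of all genes), a balance that DESeq2 turned to 42 higher and 73 lower (12.7% and 19.4% of its genes).

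Testis had the most calls of the 6 tissues, among the members as over all genes. Leading them were Med9os, head-to-head with the Mediator subunit gene Med9, Kcnmb4os1, opposite a regulatory subunit gene of the BK potassium channel, and Itpr3os, within the IP3 receptor gene Itpr3. Med9os (ENSMUSG00000085260, chr11:59946889-59948142) starts 64 bases from Med9 and shares no base with it. It had 56.1, 51.8 and 50.3 FPKM in testis and tissue means of 0.430 to 2.33 elsewhere (log2 fold 6.01, SE 0.17, edgeR adjusted p = 3.3e-21). Med9 was higher in testis by far less, with 13.2 FPKM against 3.82 to 9.48 (log2 fold 1.14, edgeR adjusted p = 7.23e-09). Itpr3os (chr17:27099658-27101440) had 65.6, 94.2 and 67.6 FPKM in testis and 3.83, 5.83 and 7.51 in colon (log2 fold 6.14, SE 0.21, edgeR adjusted p = 2.24e-19), whereas Itpr3 had 2.29 in testis and 11.3 in colon and gave an adjusted p of 0.437. It shares 233 bases with an opposite-strand gene in GENCODE only. Kcnmb4os1 had 112, 116 and 100 FPKM in testis, 25.8 in brain and 1.42 in ovary (log2 fold 6.69, SE 0.19, edgeR adjusted p = 2.26e-20), and Kcnmb4 59.0 in testis and 30.8 in brain. Efhd1os had 125, 128 and 131 FPKM in testis beside 170 for Efhd1 (log2 fold 3.73, SE 0.17, edgeR adjusted p = 1.78e-16), and since its overlap estimate was 102% this level cannot be told apart from that of Efhd1.

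In all, 119 members were higher in testis (40.4% of all genes) and 44 lower (26.7% of all genes), and DESeq2 gave 119 and 49 (24.6% and 17.5% of its genes). Among all 6048 lncRNAs tested 51.5% were higher in testis. By position 70 of 158 sharing, 33 of 62 inside and 16 of 31 outside members were higher. For 67 of the 119 all testis libraries lay above all others (23.3% of all genes). Tmem132cos, within the gene Tmem132c and picked after the values were seen, had 17.1 ± 0.769 FPKM in testis (SD, n = 3), where Tmem132c had 0.103. Lower in testis than in any other library were Ube4bos1, opposite a ubiquitin chain assembly gene (2.82 ± 0.115 FPKM against 4.65 to 8.43, log2 fold -0.96, SE 0.14, edgeR adjusted p = 5.91e-07), and Plxna4os3, within the semaphorin receptor gene Plxna4 (1.19 FPKM, -2.04, adjusted p = 7.19e-07).

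Compared with ovary, testis had 107 members higher (37.8% of all genes) and 39 lower (26.5% of all genes), and DESeq2 gave 110 and 35 (22.6% and 14.7% of its genes). Med9os (log2 fold 6.35, SE 0.35, edgeR adjusted p = 5.66e-14), Kcnmb4os1 (6.86, adjusted p = 4.65e-14) and Chn1os3 (4.01, adjusted p = 1.15e-13) were higher in testis. On the ovary side were Foxl2os (11.5 against 0.00654 FPKM, edgeR adjusted p = 3.81e-10), Plxna4os3 (24.9, 14.1 and 17.1 FPKM in the ovary libraries, log2 fold -3.30, edgeR adjusted p = 7.24e-09) and Unc45bos (14.4, 9.04 and 7.09 FPKM, -4.64, adjusted p = 4.88e-08), both highest in ovary replicate 1 as well. Scaling mattered in these contrasts. With total counts in place of the TMM factors that edgeR used, all log2 folds would move by -0.64 for testis against ovary, by -0.26 for testis, 0.51 for ovary, -0.52 for heart, 0.15 for colon and 0.14 for cerebellum against the rest.

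Sex was compared within the 4 tissues present in both sexes. No member passed edgeR's adjusted p under 0.05 in brain (0.0368% of all genes did), cerebellum (0.0301% of all genes), heart (0.0635% of all genes) or colon (0.324% of all genes), nor in the interaction of sex and tissue (0.0167% of all genes). At an unadjusted p under 0.05 edgeR gave 22 of 251 members in brain (8.76%, beside 4.83% of all genes), 4 in cerebellum (1.59%, beside 3.06%), 21 in heart (8.37%, beside 9.65%), 23 in colon (9.16%, beside 8.85%) and 23 in the interaction (9.16%, beside 6.77%). DESeq2 called 0 members in brain (0.0771% of its genes) and cerebellum (0.0419%), 2 in heart (0.558%), 4 in colon (0.747%) and 2 in the interaction (0.324%). Beside those described below, these were Dhx58os (adjusted p = 0.0211) and Rapgef4os2 (adjusted p = 0.0334) in colon and Tmem150cos in the interaction (adjusted p = 0.0184). Without female colon replicate 1, edgeR called Dhx58os too (adjusted p = 0.0499). The following were picked after their values were seen. Rab10os, opposite the vesicle traffic gene Rab10, had 8.63, 6.85 and 6.43 FPKM in female and 5.20, 4.44 and 6.12 in male colon (log2 fold male to female -0.62, edgeR adjusted p = 0.0626), and the DESeq2 adjusted p was 0.000894. It was also called by edgeR with RLE in place of TMM factors (adjusted p = 0.0455), without female colon replicate 3 (adjusted p = 0.0408) and without male colon replicate 3 (adjusted p = 0.0241). The immune markers differed between the same colon libraries, as given above, and their part in these values was not tested. Zfp335os had 0.268, 0.368 and 0.693 FPKM in female and 1.37, 1.80 and 1.35 in male colon (log2 fold 1.59, edgeR adjusted p = 0.0705), and was called by DESeq2 (adjusted p = 0.0161) and by edgeR without female colon replicate 3 (adjusted p = 0.0240). Lef1os1, opposite the Wnt pathway factor gene Lef1, had 2.60, 1.51 and 2.45 FPKM in female and 1.54, 0.433 and 0.267 in male brain (log2 fold -1.52, edgeR adjusted p = 0.811), and was called once male brain replicate 1 was left out. The choroid plexus markers summed to 995, 19.9 and 1565 FPKM in the same female and 445, 41.0 and 42.4 in the same male libraries, so male replicate 1 was the only male one high in them, and their part was not tested. With an overlap estimate of 79.5% in testis, its highest tissue, Lef1os1 had in heart 0.107, 0.0391 and 0.380 FPKM in female and 0 in both male libraries (edgeR adjusted p = 0.162), the highest value being that of female heart replicate 3, the library of the adipocyte and lung markers. It was called there by DESeq2 (adjusted p = 0.0419) and by edgeR without female heart replicate 2 (adjusted p = 0.0283), and DESeq2 called its interaction of sex and tissue (adjusted p = 0.0179). Fcnaos had 0.763, 1.04 and 14.5 FPKM in female and 0.505 and 0.810 in male heart (log2 fold -2.48, edgeR adjusted p = 0.206), and it was called by DESeq2 (adjusted p = 0.0356) and by edgeR without female heart replicate 1 (adjusted p = 0.0268) or replicate 2 (adjusted p = 0.0293). The value of 14.5 FPKM belongs to female heart replicate 3, the library with 1027 FPKM of adipocyte markers.

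The lncRNA and its partner were next compared within each library, as the log2 ratio of their counts scaled to the library total with a prior count of 2, by limma over 5888 pairs of a lncRNA and a coding gene, 249 of them opposite-strand pairs. This asks whether a lncRNA and its partner differ in their tissue pattern. Relative to their partners 99 opposite-strand lncRNAs were higher in testis than in the other tissues (44.7% of all pairs) and 60 lower (19.1% of all pairs). Itpr3os rose over Itpr3 by a log2 ratio of 5.87 (SE 0.29, limma adjusted p = 4.94e-15) and Med9os over Med9 by 4.65 (SE 0.25, adjusted p = 2.3e-14). Slc36a1os, apart from the amino acid transporter gene Slc36a1, had 0.399, 0.701 and 0.788 FPKM in testis and 0 in cerebellum, heart and colon, while Slc36a1 had 0.840 in testis and 6.73 in brain (limma adjusted p = 3.6e-15). Hmgb4os, 87 bases head-to-head from the testis HMG-box gene Hmgb4, was high in testis as its partner was, with 4.14, 5.06 and 3.95 FPKM beside 343 for Hmgb4. It had 0 to 5 counts in every other library, so its ratio there was largely set by the prior count and its lower call in testis does not show a different tissue pattern. Lower in testis relative to its partner was Bcas1os1, opposite an oligodendrocyte gene, which had 31.0 FPKM in brain, 33.1 in cerebellum and 0.0443 in testis, where Bcas1 had 4.06 (log2 ratio -3.69, limma adjusted p = 1.8e-15). Its overlap estimate was 136%, so its neural level cannot be told apart from that of Bcas1.

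In brain and cerebellum more ratios were called lower than higher, for the members as over all pairs. Brain had 35 pairs higher (19.1% of all pairs) and 94 lower (40.2% of all pairs), and cerebellum 48 higher (19.7% of all pairs) and 78 lower (36.2% of all pairs). Of the 249 opposite-strand pairs these lower calls made up 37.75% and 31.3%, beside 40.2% and 36.2% of all pairs. By position, lower calls were 26.8% and 24.2% of the 157 sharing pairs, 67.7% and 56.5% of the 62 inside and 33.3% and 16.7% of the 30 outside. The median highest tissue mean was 0.716 FPKM over all inside members, 1.21 over outside and 4.33 over sharing ones. Where a lncRNA has few counts the prior count largely sets its side of the ratio, which then follows the partner. The difference between positions therefore does not show a different tissue pattern of the lncRNAs. Gad1os, which overlaps the GABA synthesis gene Gad1 by 33 bases, had 4.42, 4.21 and 3.99 FPKM in testis and 0.387 in cerebellum, where Gad1 had 96.3 and in testis 0.0835 (limma adjusted p = 1.69e-14 for brain and 2.43e-14 for cerebellum). Dnm3os fell relative to Dnm3 by 5.20 on the log2 scale in brain (SE 0.20, limma adjusted p = 7.85e-17) and rose by 4.75 in ovary (SE 0.26, adjusted p = 1.27e-12). Nell1os, within the secreted factor gene Nell1, had 1.81, 1.92 and 2.49 FPKM in testis and 0.0111 in cerebellum, while Nell1 had 0.600 and 10.6. Srrm3os had 0.0788 FPKM in brain and 0.672 in testis beside 5.80 and 0.0515 for the neural splicing gene Srrm3 (limma adjusted p = 5.12e-15 for brain). Prdm16os rose over Prdm16 in brain (log2 ratio 3.01, SE 0.18, limma adjusted p = 3.24e-13). Brip1os rose over the helicase gene Brip1 in brain (2.11, adjusted p = 1.51e-10) and cerebellum (2.48, adjusted p = 1.11e-11) without being high there: it had 5.84 and 7.26 FPKM, against 13.0 in colon and 13.4 in ovary, while Brip1 had 0.0845 and 0.0843 against 0.918 and 1.33. Ttc39aos1 had 0.842 FPKM in brain and 0.0631 in testis, and Ttc39a 1.34 and 55.8 (log2 ratio in brain 3.13, limma adjusted p = 2.21e-09).

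Heart gave 78 pairs higher (25.1% of all pairs) and 58 lower (31.7% of all pairs), and colon 68 higher (29% of all pairs) and 65 lower (30.8% of all pairs). In ovary 49 were higher (20.8% of all pairs) and 30 lower (21.2% of all pairs). Ino80dos (log2 ratio 2.92, SE 0.17, limma adjusted p = 1.01e-12), Hectd2os (2.78, adjusted p = 9.84e-13) and Dnah2os (4.58, adjusted p = 1.42e-11) rose over their partners in heart. Dnah2os was not high there: it had 0.910 FPKM in heart, where the axonemal dynein gene Dnah2 had 0.0202, against 2.75 in ovary and 13.7 in testis. Ccdc142os fell there relative to Ccdc142 by 1.57 on the log2 scale (limma adjusted p = 1.2e-07, overlap estimate 85.6% in ovary, its highest tissue). Zfp286os, within the zinc finger gene Zfp286, had 0.742, 1.12 and 1.86 FPKM in colon and 0 in brain, and Zfp286 0.381 and 2.44 (limma adjusted p = 1.02e-13). Testis held Zfp286os as well, with 24, 13 and 17 counts, beside 10 to 25 in the colon libraries, whose total counts were lower. Arhgap27os2 and Arhgap27os1 had 1.41 and 1.56 FPKM in colon, where the partner gene Arhgap27 had 27.8 (log2 ratios -2.33 and -2.62, limma adjusted p = 5.54e-10 and 4.66e-09). Nr5a1os, opposite the steroidogenic factor gene Nr5a1, had 1.12 FPKM in ovary beside 48.9, but its overlap estimate was 642%, so this level cannot be told apart from that of Nr5a1.

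**Figure D2:**
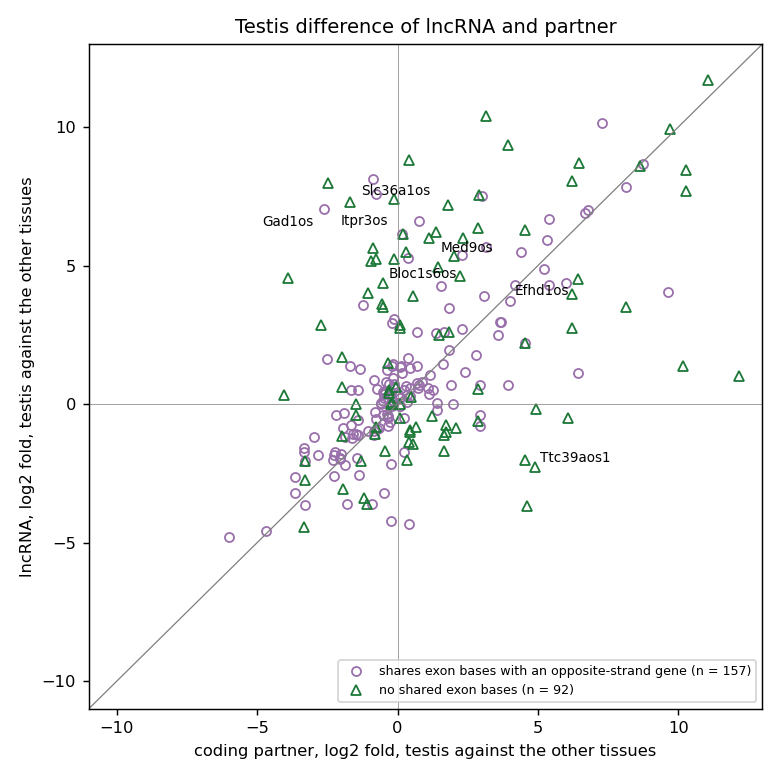
Log2 fold of testis against the other tissues for each opposite-strand lncRNA and its partner, from the edgeR fit, with 157 lncRNAs sharing exon bases and 92 not sharing marked apart and a line where both folds are equal. Med9os had a fold of 6.01 with 1.14 for Med9.

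Calls of both genes of a pair were compared with those of other lncRNAs and their nearest coding gene. That nearest gene could lie on either strand and at any distance, and shared bases could be on either strand. These other pairs are therefore not matched to the opposite-strand pairs, here and in the correlations below. In testis the 127 opposite-strand pairs tested that share exon bases with each other had 56 called in the same direction (44.1%) and 3 in opposite directions, beside 54.6% and 5.08% of 1576 other sharing pairs. The 122 without bases shared in the pair had 49 in the same direction (40.2%) and 19 in opposite directions (15.6%), beside 29.8% and 20.9% of 4063 other pairs. In brain the same direction was called for 60.6% of the sharing opposite-strand pairs and 52.3% of the other sharing pairs, and for 24.6% and 21.5% of those without. The highest tissue of lncRNA and partner was the same for 120 of 187 pairs in which both reached 1 FPKM (64.2%), with 94 of 131 for sharing members (71.8%) and 26 of 56 for the rest (46.4%). Pearson's r of log2(FPKM + 0.1) over the 6 tissue means, given as a description since the points share libraries and depth, had a median of 0.907 over the 187 pairs. It was 0.961 for the 108 pairs that share exon bases with each other and 0.685 for the other 79. For the 56 members that share no bases with any opposite-strand gene the median was 0.487, with 18 below 0. Other lncRNAs and their nearest coding gene had medians of 0.961 with shared bases (1338 pairs) and 0.327 without (2287 pairs). The highest values were those of Chn1os3, Scpep1os and Grin1os, all at 0.999. Scpep1os had 24.6 ± 2.09 FPKM in ovary beside 81.0 for the carboxypeptidase gene Scpep1, with an overlap estimate of 39.4%. Grin1os, opposite the NMDA receptor gene Grin1, had 31.6 FPKM in brain with an overlap estimate of 72.5%. The lowest were those of Bloc1s6os (-0.82), Chrna1os (-0.62) and Foxo6os (-0.58), all outside any opposite-strand gene. Bloc1s6os, 141 bases head-to-head from the lysosome biogenesis gene Bloc1s6, had 6.11, 5.06 and 3.74 FPKM in testis and tissue means of at most 0.739 elsewhere, its highest other library being 1.14 in colon, while Bloc1s6 was lowest there at 6.71 FPKM. Without testis r was -0.35 for Bloc1s6os and 0.33 for Chrna1os.

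**Figure D3:**
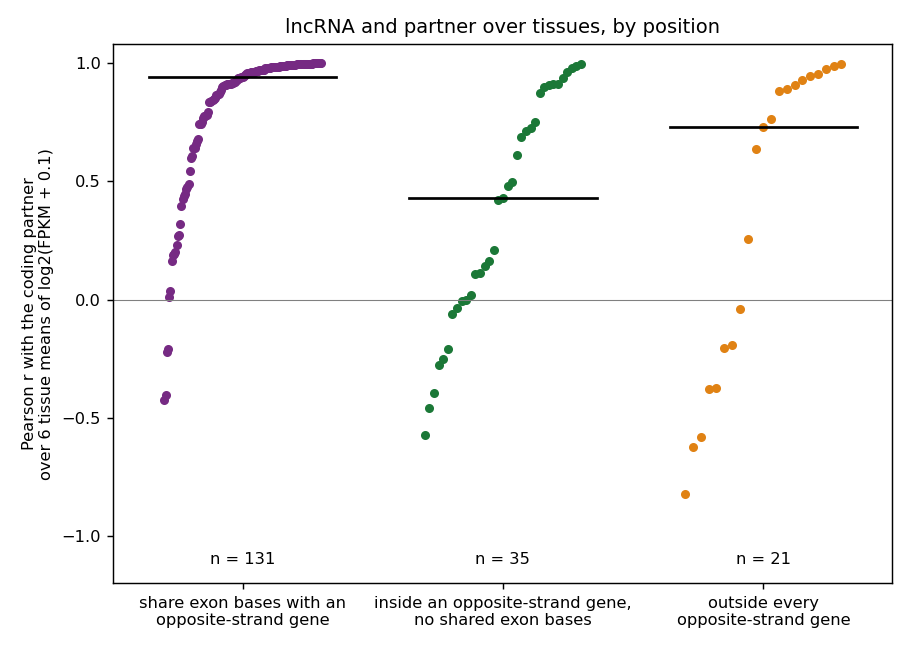
Pearson's r between opposite-strand lncRNA and partner over the 6 tissue means, by position of the lncRNA (131 sharing exon bases, 35 inside and 21 outside an opposite-strand gene). Each point is a pair and the line is the median, 0.430 for inside and 0.728 for outside.

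The partner was a developmental transcription factor gene, by a list of family names such as Hox, Fox, Sox and Pax, for 29 members, 20 of which reached 1 FPKM. In 22 of the 29 pairs lncRNA and partner had the same highest tissue. Of the 28 tested, 8 were higher and 4 lower in brain, 12 and 2 in cerebellum, 5 and 3 in heart, 9 and 3 in colon, 8 and 2 in ovary and 9 and 2 in testis. Between brain and cerebellum 1 was higher in brain (3.57%, beside 15.3% of all genes) and 9 in cerebellum (32.1%, beside 10.8% of all genes). Between testis and ovary 9 were higher in testis and 7 in ovary (25%, beside 26.5% of all genes). The higher calls were 28.6% of the 28 in brain, 42.9% in cerebellum, 17.9% in heart, 32.1% in colon, 28.6% in ovary, 32.1% in testis and 32.1% in testis against ovary. Over all genes they were 33%, 30.8%, 22.1%, 28.2%, 22.4%, 40.4% and 37.8% in the same order. The lower calls were 14.3%, 7.14%, 10.7%, 10.7%, 7.14% and 7.14% of the 28 in the 6 tissues in this order. Over all genes the lower calls were 23.1%, 22%, 29.6%, 31.1%, 19.8% and 26.7%. Six3os1, opposite the forebrain homeobox gene Six3, had 0.606 ± 0.0704 FPKM in brain (n = 6) and 0.0565 in cerebellum, and Six3 2.51 and 0.166. Female cerebellum replicate 3 had 0.214 FPKM of Six3os1 and the other 5 cerebellum libraries 0.0137 to 0.0353. Pax6os1, beside the eye and granule cell factor gene Pax6, had 0.624 FPKM in cerebellum and 0.269 in brain, where Pax6 had 15.6 and 6.10. The next were picked after the values were seen. Foxd2os, outside any gene and 384 bases from the forkhead gene Foxd2, had 2.04 ± 0.366 FPKM in colon and at most 0.224 elsewhere (log2 fold 4.13, edgeR adjusted p = 1.24e-12), and Foxd2 was likewise highest in colon at 3.26. Tlx1os, near the homeobox gene Tlx1, had 4.80 ± 0.878 FPKM in testis and 0 in every other tissue, its lowest testis library being at least 9.49-fold higher than 3 counts elsewhere (0.412 FPKM). Hoxd3os1, opposite Hoxd3, had 21.6 ± 1.59 FPKM in testis, 8.12 in ovary and 2.25 in colon, where Hoxd3 had 0.0157, 0.479 and 0.109 (overlap estimate 0.200%, log2 fold in testis 7.58, edgeR adjusted p = 5.17e-17). Sox5os3 had 8.56 ± 0.564 FPKM in testis, the tissue in which the SOX factor gene Sox5 had 60.5.

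Promoter windows of 300 bases around the annotated start were taken from RefSeq on GRCm38.p6 for 160 lncRNA names and 191 partner symbols. They were searched on both strands for the letters TATAAA of the core promoter box, the letters CCAAT of an upstream box and the letters GGGCGG of the GC box. Members that stand head-to-head within 1000 bases of their partner had GGGCGG in 27 of 54 windows, other members in 16.4% of 140, partners in 50.7% of 274 and all 32851 windows of the table in 35.7%. TATAAA occurred in 3.70% of the head-to-head windows, 7.86% of the other members' windows and 13.6% of all windows, and CCAAT in 38.9%, 31.4% and 37.4%. The median number of CG was 17 in head-to-head windows, 5 in those of the other members and 7 over all. A name can have several windows. Windows of a head-to-head lncRNA and its partner can cover the same bases in part, as for Med9os and Med9. The likeness of head-to-head and partner windows is therefore partly given by their position. The windows of 4 head-to-head lncRNAs named above are shown because their starts lie close to those of the partners, with capitals marking GGGCGG or CCAAT on either strand. Med9os (chr11:59948098-59948397, minus strand) holds GGGCGG 3 times and 30 CG, Lhx1os (chr11:84525410-84525709, plus strand) CCAAT once and 33 CG, Prdm16os (chr4:154637330-154637629, plus strand) GGGCGG 7 times and 39 CG, and Hmgb4os (chr4:128260794-128261093, plus strand) CCAAT once and 4 CG. A match describes these letters only.
Med9os: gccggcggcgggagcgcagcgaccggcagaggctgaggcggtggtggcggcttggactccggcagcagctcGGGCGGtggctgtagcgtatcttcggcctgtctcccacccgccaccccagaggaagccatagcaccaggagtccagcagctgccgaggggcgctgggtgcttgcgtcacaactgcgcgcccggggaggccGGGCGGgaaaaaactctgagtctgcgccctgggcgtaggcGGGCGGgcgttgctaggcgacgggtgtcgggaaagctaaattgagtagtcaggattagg
Lhx1os: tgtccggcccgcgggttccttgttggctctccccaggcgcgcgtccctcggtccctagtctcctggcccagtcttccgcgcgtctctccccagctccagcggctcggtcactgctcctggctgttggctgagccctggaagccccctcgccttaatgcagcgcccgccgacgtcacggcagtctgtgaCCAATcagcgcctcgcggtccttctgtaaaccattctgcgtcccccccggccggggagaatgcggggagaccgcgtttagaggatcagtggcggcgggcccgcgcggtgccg
Prdm16os: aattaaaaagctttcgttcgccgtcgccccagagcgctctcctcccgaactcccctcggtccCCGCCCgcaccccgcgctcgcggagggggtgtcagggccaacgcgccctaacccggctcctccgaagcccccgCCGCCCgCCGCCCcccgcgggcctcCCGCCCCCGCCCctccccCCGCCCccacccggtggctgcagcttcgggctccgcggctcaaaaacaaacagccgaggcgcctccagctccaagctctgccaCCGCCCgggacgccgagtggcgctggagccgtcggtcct
Hmgb4os: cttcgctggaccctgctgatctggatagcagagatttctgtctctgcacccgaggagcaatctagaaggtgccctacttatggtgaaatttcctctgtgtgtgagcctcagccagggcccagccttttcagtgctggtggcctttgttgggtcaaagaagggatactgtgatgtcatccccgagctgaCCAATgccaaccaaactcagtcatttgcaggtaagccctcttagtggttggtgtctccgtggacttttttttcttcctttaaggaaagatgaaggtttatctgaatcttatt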

How the data were processed

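RNA-seq counts were deposited by the authors as whole numbers per gene for the 29 libraries; the submitters' processing notes name FastQC 0.11.8, MultiQC 0.9, HISAT2 2.0.5 and featureCounts 1.6.3, with the mouse build mm10 and an annotation of ENSEMBL genes merged with Iso-seq loci. No source used here names a strand option for that counting. The matrix had 0 further columns of per-sample values. FPKM was computed here from the counts, the library totals (11742417 to 36194255) and the union exon length.

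Genes were tested with edgeR 4.0.16 (quasi-likelihood, TMM, filterByExpr by group, Benjamini-Hochberg over all 29911 genes), 10 group means and 1 fit, and ratios with limma 3.58.1 (trend) over 5888 pairs, in R 4.3.3. Tables were made in Python 3.11.15. Both steps were tested on simulated counts. Alternatives were DESeq2 1.42.0, RLE size factors, no filter on low counts, the replicate number as a block, each library left out, other level minimums, pseudocounts and scalings, and pairs without shared exon bases. Low counts limit members near the floor of 3 counts per library, and floors cover counting error only.

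Named members were the 5 with the highest tissue mean; up to 3 per direction and comparison with the smallest adjusted p among called members whose libraries did not overlap; the 3 with the lowest tau; the 3 pairs with the highest and the 3 with the lowest correlation; up to 3 pairs per direction and tissue in the ratio test; and members with known roles, each with its partner. Of 12 names listed for known roles, 8 are members. Of the pairs chosen by the ratio test, Tbx3os2, Lyrm7os, Mkln1os, Sox5os2, Arhgap20os and Slc36a3os are not described above. Some of the others are described for only part of the tissues in which they were chosen. Members, lists and tests were chosen with earlier results of these data known.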

Additional observations from a re-analysis of the deposited data

How the results depend on the processing

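Over 1678 recomputed values under the alternatives, 1644 kept their direction and their side of the threshold or moved by less than the spread between replicates, 14 moved further, 10 passed the threshold newly, 10 no longer passed it, and 0 reversed. The 42 calls of members named by the fixed rule for the tissue comparisons were kept in each of their 10 to 33 alternatives; calls of members named for other reasons, such as Prdm16os, Cdr1os, Foxo6os, Efhd1os, Hoxd3os1 and Foxd2os, were not followed singly. DESeq2 called 2 members between the sexes in heart, 4 in colon and 2 in the interaction, and RLE size factors 1 in colon, where edgeR with TMM called 0; leaving out 1 library gave 0 to 1 in brain, 0 to 2 in heart and 0 to 2 in colon. With the replicate number as a block, calls were 81 higher and 46 lower in brain, 89 and 38 in cerebellum and 42 and 71 in heart. They were 52 and 76 in colon, 50 and 36 in ovary and 119 and 42 in testis. Between brain and cerebellum they were 23 and 23, between testis and ovary 107 and 37, and between the sexes 0. The median correlation of deviations from the group means was -0.00197 over 126 library pairs with the same number. It was 0.00146 over 252 with different numbers. These correlations gave no sign that the numbers pair the libraries. They cannot exclude such pairing, since the pairs also include female with male libraries, which cannot come from a single animal. Leaving out 1 library gave 120 to 135 calls in brain, 117 to 135 in cerebellum, 101 to 117 in heart, 124 to 135 in colon, 73 to 89 in ovary, 146 to 167 in testis, 40 to 49 between brain and cerebellum and 136 to 141 between testis and ovary.

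At 1 FPKM or more as the mean over all libraries stood 120 members, fewer by construction than with the highest tissue mean. Median tau was 0.660 on log2(FPKM + 1) and 0.790 with a minimum of 0.5 FPKM. The median correlation with the partner was 0.898 on log2(FPKM + 1), 0.929 on untransformed FPKM, 0.918 without testis and 0.685 without exon overlap. For members inside an opposite-strand gene it was 0.203 on untransformed FPKM and 0.602 without testis, and for those outside 0.602 and 0.622. Of the 56 members sharing no bases with any opposite-strand gene, 11 were below 0 without testis. Other lncRNAs sharing no bases with their nearest coding gene had 0.149 on untransformed FPKM. In testis 88 ratio pairs without overlap were called. Of the 92 sharing no bases with any opposite-strand gene, 67 were (44.7% of all pairs higher, 19.1% lower). A count chosen after seeing the data covered the 93 tested members sharing no exon bases with an opposite-strand gene. It gave 28 calls in brain, 29 in cerebellum, 29 in heart, 29 in colon, 20 in ovary and 65 in testis. Brain against cerebellum gave 15 and testis against ovary 60. In the same order, 56.05%, 52.83%, 51.66%, 59.3%, 42.18%, 67.13%, 26.06% and 64.3% of all genes were called. The member counts cover fewer members by construction. For the other changes the cause was not tested.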

Other observations

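Opposite-strand names also occur on Iso-seq loci that the annotation does not class under such a name, and these lie outside the 278 members; they were picked after their values were seen. Hand2os1, which stands beside the cardiac factor gene Hand2, was counted on locus PB.11769 (chr8:57304271-57320380, GRCm38.p6) and shares no exon bases with an opposite-strand gene. It had 55.9 ± 11.9 FPKM in heart (SD, n = 5; 39.0 to 70.7 over the libraries), 7.43 ± 1.05 in colon and 0 in brain and cerebellum. Emx2os, beside the urogenital and cortical homeobox gene Emx2, had 8.03 ± 4.02 FPKM in ovary (n = 3) and 2.23 ± 0.586 in brain (n = 6). Dlx6os1, known from forebrain interneurons, had 6.22 ± 1.97 FPKM in brain and 0.0943 in cerebellum. Dio3os, beside the thyroid hormone deiodinase gene Dio3, had 3.46 ± 0.512 FPKM in ovary and at most 0.195 in another tissue. Cep83os had 9.75 ± 0.430 FPKM in testis, and Atcayos 3.90 ± 0.957 in heart.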
